A study of Mus musculus with 4 samples.

Results

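The sites described here are perfect tandem copies of the COUP-TF half-site in chromatin tagged by an antibody against NR2F1 in the embryonic mouse hindbrain. A direct repeat with 1 base between its copies (DR1) is 2 exact copies of AGGTCA on the same strand with any single base between them. Called peaks of 4 libraries were merged where they overlapped by at least 1 bp, and regions with a peak in every library were kept. Of these 35809 shared regions, 691 (1.93%) held at least 1 DR1, on either strand of mm10, and they are called DR1 regions below. No count of signal entered this choice, only the positions of peaks and the genome sequence.

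NR2F1 (COUP-TFI) is an orphan nuclear receptor of the COUP-TF family, whose members bind DNA as dimers and often act as repressors. Nuclear receptors of this kind recognise pairs of the half-site AGGTCA, and the orientation of the copies and the bases between them differ between receptor dimers. DR1 is a classical element for COUP-TFs, and it is also bound by HNF4, by RXR homodimers and by PPAR with RXR, so the letters alone do not name the bound receptor. In the hindbrain, COUP-TFs and retinoic acid signalling through RAR and RXR both take part in patterning and in motor neuron development.

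The study asked whether a single-base change in a *Gata2* regulatory element alters NR2F1 binding in motor neurons of rhombomere 4 (r4). Single-cell CUT&Tag was used, in which an antibody-tethered Tn5 transposase cuts DNA near the bound protein, and the signal is the number of such cuts. Both groups were E10.5 embryos carrying the Isl1MN-GFP reporter, which marks motor neurons. The labels call the first genotype mutant and the study calls it Fam5snv/snv, a homozygous knock-in of the human Fam5 SNV (2 libraries, pools of 8 and 16 embryos), and the other group was WT (2 libraries, pools of 26 and 26 embryos). Dissected r4 and adjacent tissue was sorted for GFP. According to the labels of these libraries, GFP-negative cells were also taken once the GFP-positive ones had been sorted, so the barcodes may include non-motor-neuron cells of that tissue. Each library is 1 pool, and the p-values below measure only the spread between pools, which may be partly technical. No IgG or input library was analysed here, so peaks stand against no antibody-free background.

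The Fam5snv/snv libraries held 2274 and 2740 barcodes with 8967987 and 10341894 cut sites in 137996 and 170993 peaks, and the WT libraries held 2572 and 1377 barcodes with 3083946 and 3580517 cut sites in 42168 and 151951 peaks. WT replicate 1 stood apart, with the fewest peaks and 99.5% of its cut sites inside the shared regions, against 74.1% to 79.9% in the other libraries, so its peaks largely set which regions are shared. Any pair of libraries had 3 to 12 barcodes in common, at most 0.799% of the smaller library. Signal is given as CPM, the count of cut sites per 1000000 of those the library holds in the tested shared regions, after TMM scaling, where 1 cut site is 0.126 to 0.352 CPM. By gene list, 41 of 46 r4 motor neuron and hindbrain genes had their promoter in a shared region, with a median of 64.6 CPM (7.26 to 289), as had 18 of 22 neural progenitor genes (median 42.3 CPM, 3.88 to 158). For other cell types it was 9 of 17 endothelial genes (24.1 CPM, 19.2 to 73.8) and 4 of 12 blood genes (21.7 CPM, 16.9 to 32.05). It was 8 of 10 neural crest genes (16.9 CPM, 10.6 to 26.5) and 10 of 15 mesenchyme genes (21.3 CPM, 7.18 to 92.3). Axon guidance and adhesion genes had 49 of 58 (41.1 CPM) and nuclear receptors 29 of 42 (39.4 CPM). The values over all promoters are not given here, and NR2F1 signal at a promoter is not expression of the gene. The lists therefore do not show which cells were present.

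A first set of sites is shown because their regions were among the 10 of highest signal. Each line below gives 8 bases of mm10 on either side of the site in the RefSeq genome sequence, read 5′ to 3′ on the strand named, with the half-sites in capitals.
Ndufs8, chr19:3912397-3912425, minus strand: acccctacAGGTCAaAGGTCAcaagaggg
Isca1, chr13:59769903-59769931, minus strand: agcccgcaAGGTCAcAGGTCAcctccctt
Gse1, chr8:120565157-120565185, plus strand: aggagggcAGGTCAgAGGTCAtgaaccca
Tspan9, chr6:128022461-128022489, minus strand: tgtcgtggAGGTCAgAGGTCAtgtctgag
Nr2f6, chr8:71378246-71378274, plus strand: gccctttgAGGTCAgAGGTCAggcggggc

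A second set is shown because the nearest gene is a regulator of the hindbrain, a nuclear receptor, a retinoic acid enzyme or an axon guidance gene. The base between the half-sites differs among them, and the results below turn partly on that base.
Hoxb3, chr11:96344838-96344866, minus strand: tgttggtcAGGTCAgAGGTCAtcaggtag
Nkx6-1, chr5:101591426-101591454, plus strand: tcagagggAGGTCAtAGGTCAccccagcc
Lhx1, chr11:84653714-84653742, minus strand: aagttcggAGGTCAgAGGTCAaacaggtt
Neurog1, chr13:56262338-56262366, plus strand: cacagccaAGGTCAtAGGTCAgttatcgt
Esrrg, chr1:187666076-187666104, minus strand: atgccacaAGGTCAaAGGTCAaaagagag
Rxra, chr2:27772979-27773007, minus strand: gtgggctgAGGTCAgAGGTCAcctaccag
Cyp26b1, chr6:84541717-84541745, minus strand: gattaacaAGGTCAaAGGTCAaagcagcc
Slit1, chr19:41670697-41670725, plus strand: gcccaacaAGGTCAgAGGTCAtgggaata
Sema3f, chr9:107697501-107697529, minus strand: cccacaggAGGTCAgAGGTCAgggctagg

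A further set shows how DR1 sites were arrayed where a region held several. At *Egln3* and *Det1* each site shares a half-site with the next, 7 bases on, and the first and last of 4 are given, whereas the sites at *Spock1* and *Katnal1* are separate copies that share no bases.
Egln3 first, chr12:54429405-54429433, minus strand: caggtcagAGGTCAgAGGTCAgaggccag
Egln3 last, chr12:54429426-54429454, minus strand: ggcgtctgAGGTCAgAGGTCAcaggtcag
Det1 first, chr7:78836697-78836725, minus strand: caggtcacAGGTCAcAGGTCAgccttgaa
Det1 last, chr7:78836718-78836746, minus strand: aggatcacAGGTCAcAGGTCAcaggtcac
Spock1 first, chr13:57573645-57573673, plus strand: attgaagtAGGTCAcAGGTCAgacaaggg
Spock1 middle, chr13:57573685-57573713, plus strand: agagaagtAGGTCAcAGGTCAgacagggg
Spock1 last, chr13:57573725-57573753, plus strand: agagaagtAGGTCAcAGGTCActtagggg
Katnal1 first, chr5:148933959-148933987, plus strand: ctgcttacAGGTCAcAGGTCAtcacatga
Katnal1 last, chr5:148933986-148934014, plus strand: gatcttatAGGTCAcAGGTCAtcagatga

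For comparison, the regions of highest signal with a direct repeat of other spacing are shown for DR0 (no base between the half-sites) and DR2 (2 bases).
Zfpm1 DR0, chr8:122274864-122274891, plus strand: agggtaaaAGGTCAAGGTCActcactgg
Csf2ra DR2, chr19:61225578-61225607, minus strand: ccccacggAGGTCAcaAGGTCAaggtgcgc

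Outside soft-masked sequence, DR1 sites lay inside called NR2F1 peaks more often than any other exact arrangement of the half-site scanned, in every library. Because 63.6% of the DR1 sites in shared regions lay in soft-masked sequence (interspersed and simple repeats, 36.4% of mm10), sites outside it were counted first. Of 1365 such DR1 sites in mm10, 32.5% (95% exact binomial interval 30.0 to 35.0) lay in peaks of Fam5snv/snv replicate 1 and 42.2% (39.6 to 44.9) in those of Fam5snv/snv replicate 2. In the WT libraries it was 14.6% (12.7 to 16.6) for replicate 1 and 29.5% (27.0 to 31.9) for replicate 2. Peaks covered 4.08% and 5.40% of mm10, soft-masked sequence included, in the Fam5snv/snv libraries and 1.17% and 3.52% in the WT libraries. Over all DR1 sites, soft-masked or not, the share in peaks was 6.83 and 7.13 times that coverage in Fam5snv/snv. In WT it was 9.70 and 7.34 times. Peak coverage of sequence outside soft-masked parts is not given here, so no such ratio is given for the 1365 sites. These intervals cover counting error only. The differences between libraries follow how much of the genome their peaks covered and were not tested as a difference between genotypes.

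Other spacings and orientations came close to DR1 to different degrees. DR2 sites came closest among direct repeats, with 25.9% (23.1 to 28.9) and 35.4% (32.3 to 38.5) of 930 sites in peaks of the Fam5snv/snv libraries, and 10.5% (8.64 to 12.7) and 25.4% (22.6 to 28.3) in those of the WT libraries. The DR2 interval lay below that of DR1 in both Fam5snv/snv libraries and, narrowly, in WT replicate 1, and overlapped it in WT replicate 2. DR0 sites reached 19.2%, 27.0%, 5.93% and 14.0% in Fam5snv/snv replicates 1 and 2 and WT replicates 1 and 2, and their intervals lay below those of DR1 in all 4 libraries. DR3, DR4 and DR5 sites were between 17.9% and 20.98% in Fam5snv/snv replicate 1 and between 7.92% and 9.42% in WT replicate 1.

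Inverted repeats (IR, AGGTCA followed by TGACCT) without a spacer ranked next to DR1 in 3 of the 4 libraries. IR0 sites stood at 29.0% (22.8 to 35.8) in Fam5snv/snv replicate 1 and 12.5% (8.26 to 17.9) in WT replicate 1, over 200 sites only, and these intervals overlapped those of DR1. Over spacers of 0 to 5 bases, inverted repeats averaged 15.8% and 5.15% and everted repeats (ER, TGACCT followed by AGGTCA) 14.9% and 4.89% in the same pair of libraries, against 32.5% and 14.6% for DR1. A DR1 with 1 mismatch in 1 half-site was in peaks at 16.9% and 6.95% there, and a single half-site at 7.75% and 2.30%. Outside soft-masked sequence, DR1 had the highest share of all 33 arrangements with spacers of 0 to 10 bases in each library. Over all sites it was highest in both Fam5snv/snv libraries and in WT replicate 2, but in WT replicate 1 it stood at 11.4%, below the 11.8% of 229 IR0 sites. Among soft-masked sites alone DR1 ranked 4 and 1 in the Fam5snv/snv libraries and 5 and 2 in the WT libraries, and DR9, with 164 such sites, was above it in 3 of the 4. DR1 stood at 25.9% and DR9 at 27.4% in Fam5snv/snv replicate 1, and DR1 at 9.95% and DR9 at 14.0% in WT replicate 1.

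**Figure D1:**
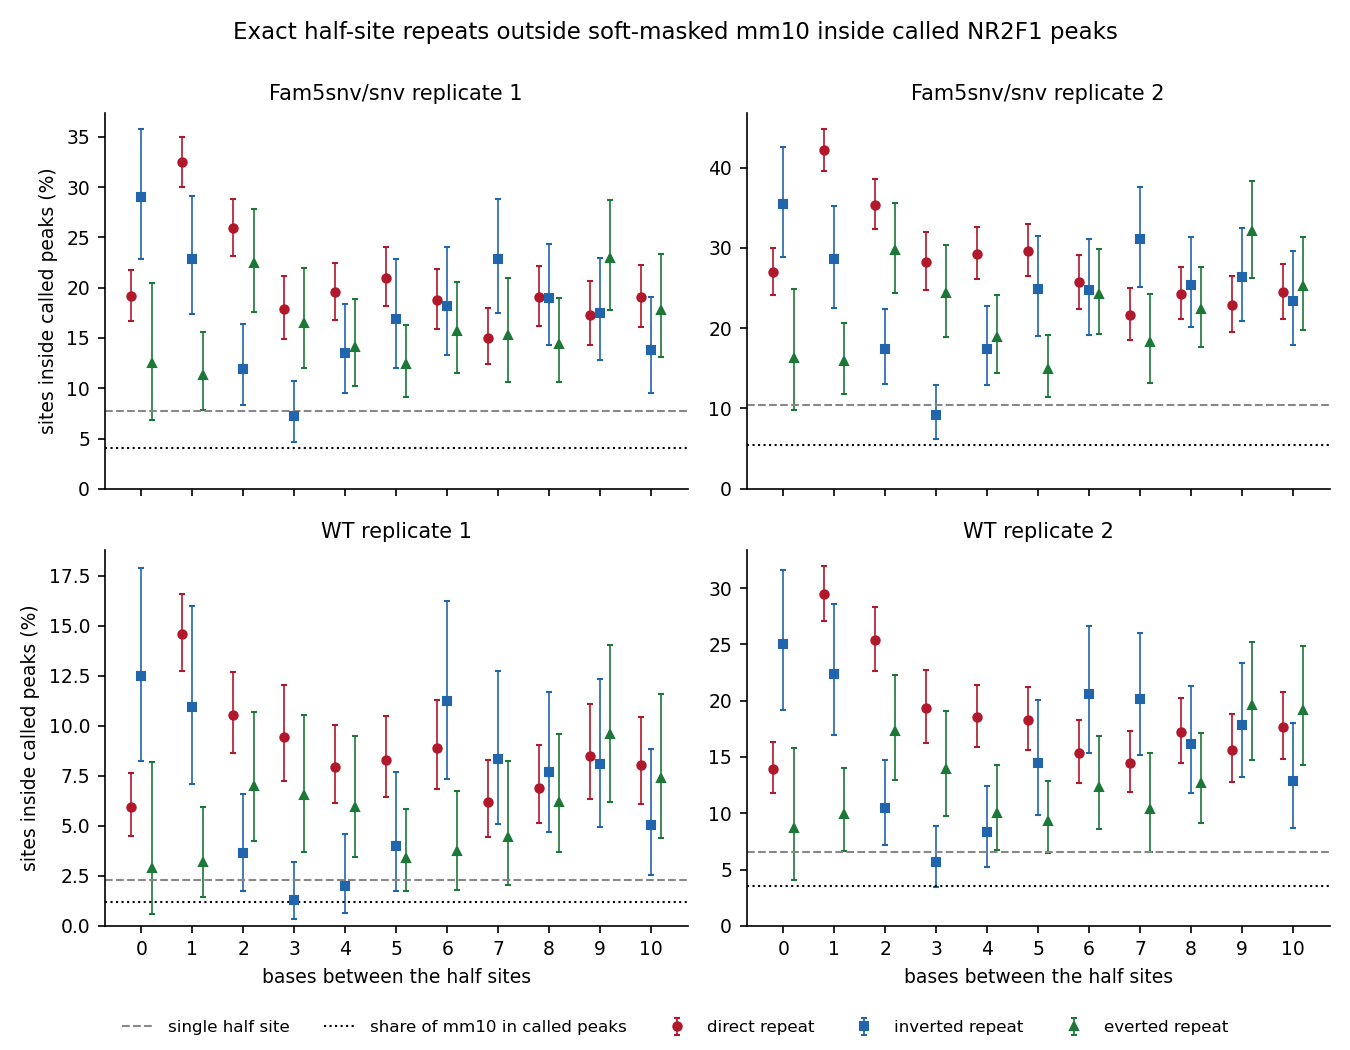
Share of exact half-site repeats of mm10, outside soft-masked sequence, that lay in called NR2F1 peaks (percent, y axis, scaled for each library) against the bases between the half-sites (x axis), in the 2 Fam5snv/snv libraries (upper panels) and the 2 WT libraries (lower panels). Points are shares and bars 95% exact binomial intervals. Lines mark single half-sites and the share of all mm10, soft-masked sequence included, in peaks. The direct repeat with 1 base stands highest in every panel, from 42.2% in Fam5snv/snv replicate 2 to 14.6% in WT replicate 1.

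Read per length of sequence, the shared regions held 8.99 DR1 per Mb against 1.70 per Mb over mm10, a ratio of 5.29 (interval 4.95 to 5.64). The ratio was 4.67 outside soft-masked sequence, against 3.76 for DR2, 2.97 for DR3, 2.90 for DR4, 2.88 for DR5 and 2.60 for DR0 counted likewise. The shared regions thus contained 773 of the 4501 DR1 sites of mm10, or 17.2% (16.1 to 18.3). The density did not climb steadily with the number of libraries in which a region was called. Per Mb of sequence that is not soft-masked, DR1 sites stood at 0.470 outside all peaks, and at 3.54, 4.41, 5.19 and 3.79 in regions with a peak in 1, 2, 3 and 4 libraries. Single half-sites counted likewise stood at 635 per Mb outside peaks and at 985, 1052, 977 and 838 per Mb in regions called in 1, 2, 3 and 4 libraries. DR1 was thus densest in regions called in 3 libraries and half-sites in regions called in 2.

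Repeat-derived sites made up most of the DR1 regions. Of the 773 sites, 492 were soft-masked, although soft-masked sequence was 13.7% of the shared regions, and 418 regions had their DR1 only there against 273 with a site outside it. Most DR1 sites of mm10 as a whole were soft-masked too, 3136 of 4501. Of these 15.7% lay in shared regions, against 20.6% of the DR1 sites outside soft-masked sequence. Within soft-masked sequence the shared regions held 41.6 DR1 per Mb, against 3.26 per Mb of such sequence in mm10. Soft-masked DR1 sites were nearly uniform. G stood between the half-sites in 417 of the 492 (84.8%), and G also preceded the site in 359 (73.0%). Over all soft-masked DR1 sites of mm10 these shares were 84.6% and 72.0%, so they were not particular to the shared regions. Outside soft-masked sequence the middle base was mixed, with A in 122 sites, G in 67, C in 49 and T in 43.

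That middle base went with the share of sites in peaks. Sites with A between the half-sites, as at *Ndufs8*, *Esrrg* and *Cyp26b1* above, outside soft-masked sequence lay in peaks at 39.4% and 51.7% in the Fam5snv/snv libraries and at 16.3% and 35.6% in the WT libraries, over 503 sites of mm10. Sites with G stood close to them, at 38.5% and 48.6% in Fam5snv/snv and at 18.7% and 37.4% in WT (257 sites). A pyrimidine gave lower shares, with C at 23.8% and 30.0% in Fam5snv/snv and 10.5% and 20.4% in WT (323 sites), and T at 24.5% and 33.3% in Fam5snv/snv and 12.4% and 21.6% in WT (282 sites). Outside soft-masked sequence, purines were thus above pyrimidines in each of the 4 libraries. Among soft-masked sites the order failed in Fam5snv/snv replicate 1 only, and in WT replicate 1 it held narrowly. G stood there at 25.8% and 37.5% in Fam5snv/snv and 9.95% and 24.4% in WT. T, with 41 sites only, stood at 26.8% and 31.7% in Fam5snv/snv and 9.76% and 21.95% in WT. C, with 182 sites, was lowest there in every library, at 17.6% and 19.8% in Fam5snv/snv and 9.34% and 15.4% in WT. A was highest there in every library, at 32.6% and 44.1% in Fam5snv/snv and 10.3% and 29.1% in WT. The choice of bases to compare was made after the values were seen, and no test was run. Some copies of DR1 in mm10 were never in a shared region: the most frequent soft-masked surroundings, with 82 identical copies in mm10, had none there. Whether reads could be placed uniquely in such copies was not tested.
Most copied surroundings, example at chrY:858994-859022, plus strand: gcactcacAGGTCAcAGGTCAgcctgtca

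Within the peaks, DR1 sites lay toward the middle. Position is given as the distance from the middle of the peak, from 0 at the middle to 1 at either edge, so that an even spread has a median of 0.5 and 25% of sites within the central 25% of the distance. DR1 sites outside soft-masked sequence had medians of 0.32 and 0.33 in the Fam5snv/snv libraries and 0.25 and 0.34 in the WT libraries. Single half-sites in the same libraries had medians of 0.45 and 0.46 in Fam5snv/snv and 0.42 and 0.46 in WT. The central 25% held 39.3% and 41.3% of DR1 sites in Fam5snv/snv and 51.8% and 37.3% in WT, against 28.3% and 28.1% of half-sites in Fam5snv/snv and 31.7% and 28.3% in WT. Soft-masked DR1 sites had similar positions, with medians of 0.33 and 0.35 in Fam5snv/snv and 0.30 and 0.34 in WT. DR2 sites, at 0.33 and 0.30 in Fam5snv/snv and 0.25 and 0.35 in WT, had medians like those of DR1.

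**Figure D2:**
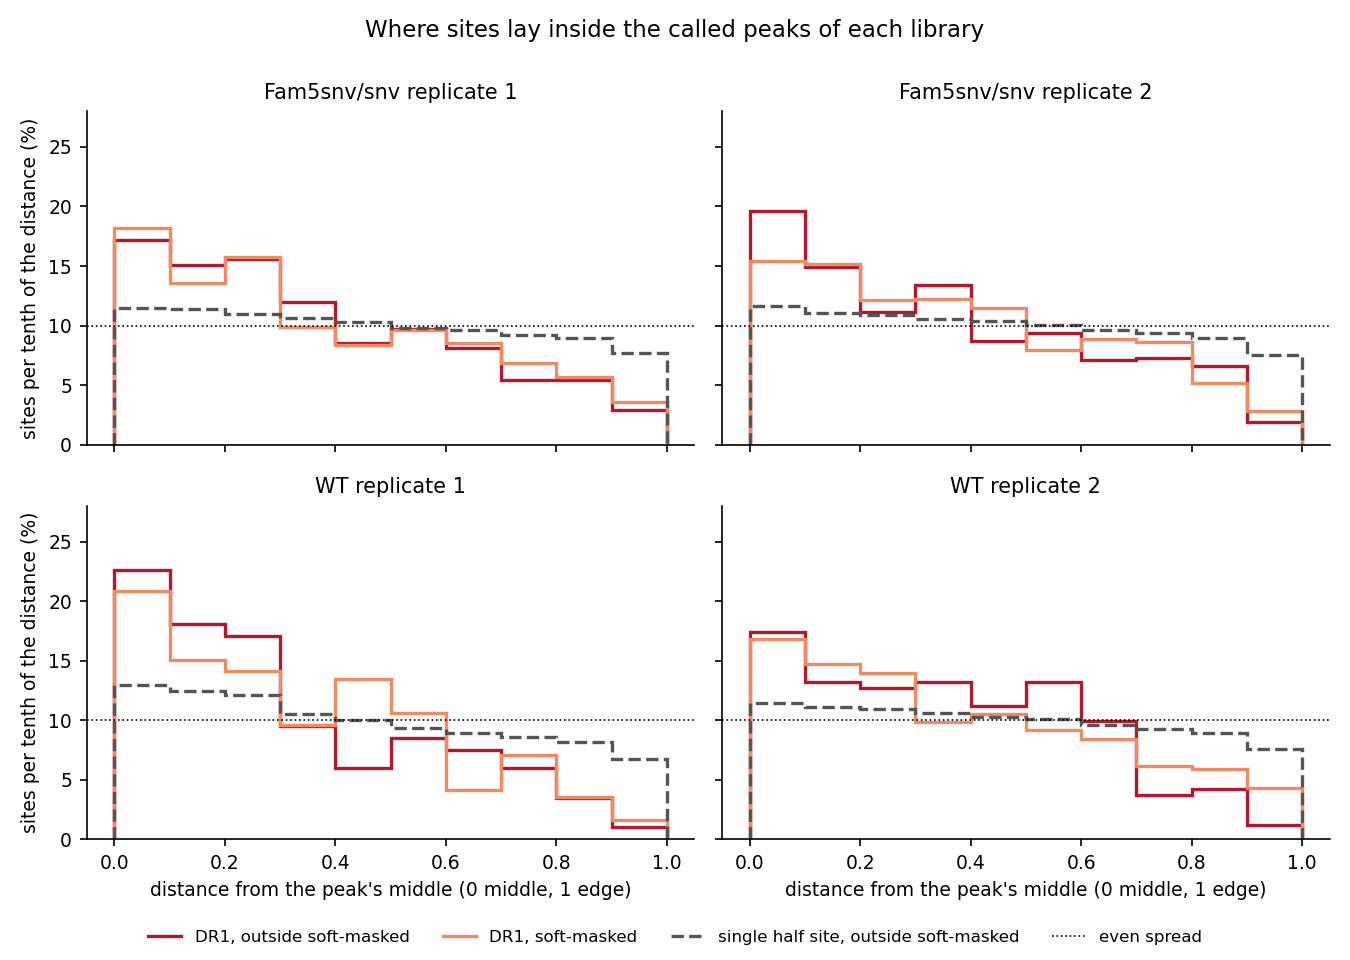
Share of sites in each of 10 equal parts of the distance from the middle of a called peak to its edge (percent, y axis; x axis 0 at the middle and 1 at the edge) in the Fam5snv/snv libraries (upper panels) and the WT libraries (lower panels). Lines are DR1 outside soft-masked sequence, soft-masked DR1 and single half-sites, with a dotted line at the 10% of an even spread; DR1 outside soft-masked sequence starts at 17.2% and 19.6% in the Fam5snv/snv libraries and ends at 2.93% and 1.91% in the outermost part.

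The same was seen where the peaks of all 4 libraries overlapped. Such stretches made up 32.7% of the length of DR1 regions and held 481 of their 773 sites (62.2%). The share was 67.3% for DR1 outside soft-masked sequence and 59.3% for soft-masked DR1, against 49.1% for DR0, 62.3% for DR2, 68.4% for DR3, 59.0% for DR4, 62.2% for DR5, 68.6% for IR0 and 76.7% for IR1 outside soft-masked sequence. DR1 was thus within the range of the other repeats by this measure. Of those 481 sites, 47.8% lay in the central 25% of their stretch, with a median distance of 104 bp from its middle. Several other repeats had shares like it or above it, with 47.6% (96 bp) for DR2, 52.5% (82 bp) for DR3 and 59.0% (57.75 bp) for inverted repeats with spacers of 0 to 5 bases, whereas DR0 had 32.9% (120.5 bp). Counted by region, 423 DR1 regions had a site in peaks of all 4 libraries, 139 in peaks of 3, 78 in peaks of 2 and 51 in peaks of 1, so that in 268 regions the signal of at least 1 library came from a part of the region without the site.

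The most central sites are shown because they sit at the exact middle of the stretch common to all libraries, within 1.5 bp. The nearest genes are *1500015O10Rik*, *Atg2a*, *Pum3*, *Siah3*, *Tax1bp1*, *Btbd16*, *St3gal1*, *Dysf*, *Neurod2* and *Gjb6*. All 10 regions lay outside promoters, and they were weak, with mean levels from 3.77 CPM at *Tax1bp1* to 24.2 CPM at *1500015O10Rik* and a median of 8.44 CPM. A choice by distance in bp favours short stretches. Theirs ran from 19 bp at *Atg2a* to 646 bp at *Neurod2*, against a median of 877 bp for all such DR1 sites. Their low level is therefore not read as a trait of central sites.
Pum3, chr19:27511542-27511570, plus strand: atggtcaaAGGTCAaAGGTCAcgctgggg
St3gal1, chr15:67336894-67336922, plus strand: ggcatgagAGGTCAaAGGTCAcaaaacca
Gjb6, chr14:57248255-57248283, minus strand: tgtcagagAGGTCAtAGGTCAggcttggc
Neurod2, chr11:98301917-98301945, plus strand: ctgagaggAGGTCAgAGGTCAcggtgagg

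DR1 regions carried more signal than shared regions as a whole and were also wider. Their median level was 22.1 and 24.5 CPM in the Fam5snv/snv libraries and 21.02 and 21.8 CPM in the WT libraries, against 17.2 and 17.6 CPM in Fam5snv/snv and 14.7 and 16.5 CPM in WT over all shared regions. Over the 4 libraries the median was 22.9 CPM for DR1 regions and 16.5 CPM for all shared regions. The SD between libraries of the same genotype, pooled over the genotypes, was 1.25 CPM for the DR1 medians. Their median width was 2797 bp (449 to 35197) against 1921 bp. Per kb of region the order turned, at 8.15 CPM for DR1 regions and 8.59 CPM for all shared regions. Regions with DR0, DR2 to DR5, inverted or everted repeats stood between 7.44 and 8.58 CPM per kb, a range that holds the DR1 value.

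Among regions of like width, a DR1 did not go with a higher level, except for CPM per region in the widest class. With the shared regions divided into 5 width classes of near-equal number, DR1 regions had medians of 6.19, 9.33, 14.8, 21.7 and 52.8 CPM, narrowest to widest, and all shared regions 6.56, 11.7, 17.4, 24.2 and 44.99 CPM. The number of DR1 regions grew along these classes, from 70 (0.976% of the class) and 82 through 104 and 152 to 283 (3.95%). Regions with another of the repeats compared had 6.67, 10.2, 14.1, 18.7 and 54.2 CPM in the same classes. The widest class ran from 3243 to 35197 bp, so its regions still differed much in width. Per kb its medians were nearly alike, at 9.48 CPM for DR1 regions and 9.43 CPM for all shared regions. Regions with another repeat had 9.62 CPM per kb there. Divided instead by CPM per kb into 5 classes, DR1 regions were 2.08%, 2.15%, 1.98%, 1.94% and 1.49% of the regions, lowest to highest density. Within single peaks of at least 200 bp, those that held a DR1 outside soft-masked sequence had a median density 1.03 times that of peaks of like width in both Fam5snv/snv libraries, and 0.986 and 1.07 times in the WT libraries. The deposited peaks carry no height, so the profile at a site was not analysed here.

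**Figure D3:**
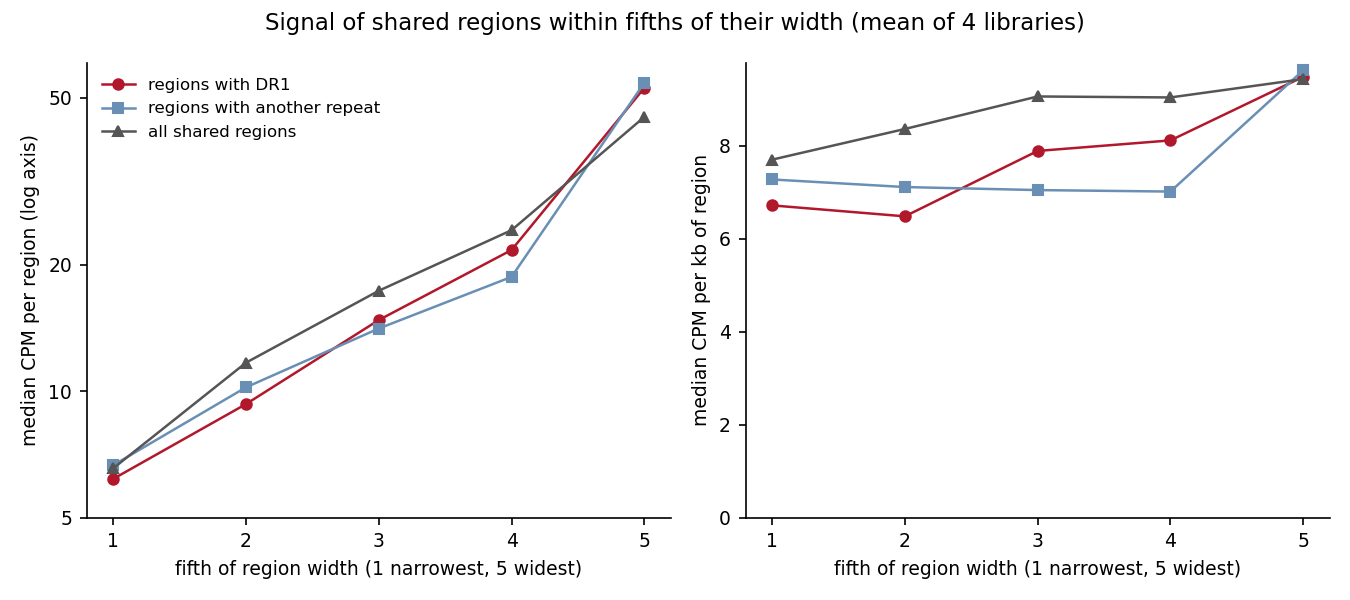
Median CPM per region (left, log axis) and median CPM per kb of region (right, axis from 0), each as the mean of 4 libraries, for 5 classes of region width from narrowest (1) to widest (5). Lines are regions with DR1, regions with another repeat compared (38 of the DR1 regions are in both) and all shared regions. DR1 regions lie at or below all shared regions in the first 4 classes. In the widest they lie at 52.8 against 44.99 CPM per region, and at 9.48 against 9.43 CPM per kb.

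The 10 strongest DR1 regions were wide blocks of 5982 to 35197 bp, 5 of them at promoters. The highest covered *Ndufa4l2*, *Nxph4* and *Shmt2* (chr10:127507081-127542277), with 916 and 879 CPM in the Fam5snv/snv libraries and 1328 and 804 CPM in the WT libraries. WT replicate 1 was highest there and WT replicate 2 lowest, so the groups overlapped, and its DR1 lay in peaks of 2 libraries only. The region of *Ndufs8*, a subunit of mitochondrial complex I, and *Tcirg1* (chr19:3904488-3917191) had 299 and 289 CPM in Fam5snv/snv and 415 and 312 CPM in WT. Its DR1 lay 71 bp from the *Ndufs8* transcription start site (TSS), 20.5 bp from the middle of the common stretch. At *Isca1*, which encodes an iron-sulphur cluster assembly protein of mitochondria (chr13:59765867-59771848), levels were 262 and 268 CPM in Fam5snv/snv and 399 and 270 CPM in WT, with the DR1 101 bp from the TSS and 4.5 bp from the middle of the common stretch. WT replicate 1 was the highest library in each of these regions.

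*Nr2f6*, which encodes a nuclear receptor of the COUP-TF family itself, held a soft-masked DR1 in its own promoter region (chr8:71374698-71386296). The level was 251 and 232 CPM in the Fam5snv/snv libraries and 424 and 340 CPM in the WT libraries. Both Fam5snv/snv values were below both WT values, with a log2 fold change of −0.66 (SE 0.24, unadjusted p = 0.0286, edgeR adjusted p = 0.573), which did not pass the threshold. The DR1, in an exon 2824 bp from the TSS, lay far from the middle of the common stretch, at −2867.5 bp. The other regions among the 10 of highest signal were those of *Cdk5rap3* (mean 513 CPM), *Gse1* (467 CPM), *Tspan9* (363 CPM), *Kif26a* (309 CPM), *Aes* and *Tle2* (283 CPM) and *Prex1* (280 CPM). *Aes* and *Tle2* encode Groucho-family corepressors, and *Prex1* a Rac exchange factor. Among promoter regions, *Nol4l* (258 CPM), *Mllt10* and *Skida1* (254 CPM), *Tle6* (254 CPM), *Narf* (229 CPM) and *Timm13* (211 CPM) followed. Over all DR1 regions the mean ran from 1.67 to 982 CPM with quartiles of 11.5 and 46.3 CPM, and 1 region in Fam5snv/snv replicate 1 and 15 in WT replicate 1 had no cut site.

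DR1 regions lay away from promoters. Of the 691, 107 (15.5%, interval 12.9 to 18.4) overlapped 1 kb on either side of the TSS of a protein-coding gene, against 35.3% (34.8 to 35.8) of all shared regions. A further 144 overlapped an exon, 213 lay in introns and 227 between genes. The promoter share was 24.6% (17.6 to 32.8) for DR0, 19.1% (13.2 to 26.2) for DR2, 22.2% for DR3, 15.4% (9.38 to 23.2) for DR4, 21.6% for DR5, 20.1% for inverted repeats and 28.9% (21.9 to 36.8) for everted repeats. The intervals of DR1 and of everted repeats did not overlap, whereas those of DR0, DR2 to DR5 and inverted repeats all overlapped that of DR1. Without WT replicate 1, which sets most of the shared regions, 10.4% of 1168 DR1 regions and 22.4% of all shared regions were at promoters.

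The difference was present among regions of like width. In the 5 width classes, DR1 regions were at promoters in 1.43%, 3.66%, 8.65%, 11.8% and 26.9%, narrowest to widest, and all shared regions in 17.7%, 32.03%, 39.1%, 42.7% and 45.1%. The site itself was rarer still near a TSS. Only 36 of 773 DR1 sites (4.66%) lay within 1 kb, while that distance held 26.8% of the bases of the shared regions and 18.2% of their single half-sites. DR4 sites were as rare there, at 4.58% of 153. DR5, DR2 and inverted repeats stood at 8.49%, 8.82% and 8.97%, and DR0, DR3 and everted repeats at 12.4%, 13.2% and 17.1%. Outside soft-masked sequence 6.76% of DR1 sites lay within 1 kb, against 3.46% of soft-masked ones. Half-sites too were sparser in promoter regions, at 647 per Mb against 939 to 968 per Mb in exon, intron and intergenic regions, soft-masked sequence included. DR1 sites outside soft-masked sequence were at 1.61 per Mb of sequence outside it in promoter regions. In exon, intron and intergenic regions they were at 4.16, 6.57 and 5.17 per Mb. The half-site and DR1 rates were thus counted over different sequence. The median distance of DR1 regions to a TSS was 23521 bp, against 9923 bp, and 118 had their site over 100 kb away. Median GC content was 49.6% in DR1 regions and 51.2% in all shared regions, and its part in the difference was not tested.

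**Figure D4:**
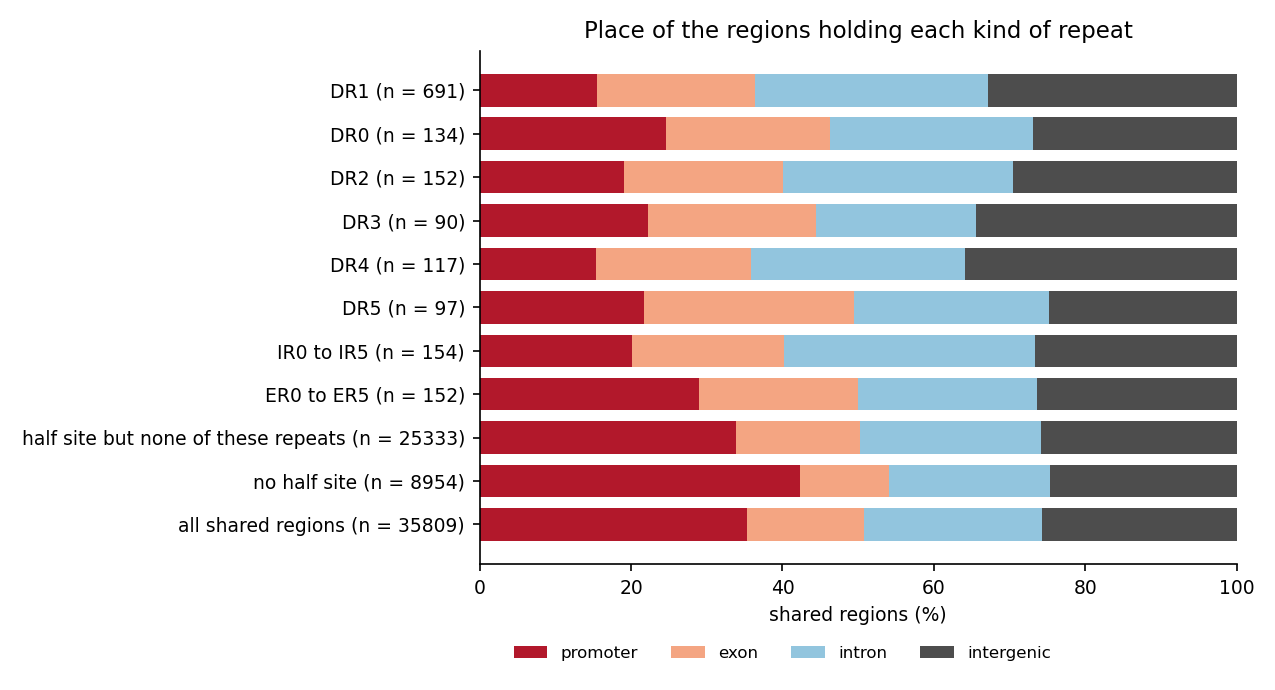
Share of shared regions (percent, x axis) at promoters, in exons, in introns and between genes, for regions holding each kind of repeat (rows, with their number) and all shared regions (last row). DR1 regions have 15.5% at promoters against 35.3% of all shared regions, and regions without any half-site have 42.4%.

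The nearest genes of the DR1 regions were 655 of the 15054 genes nearest to any shared region (4.35%), and 609 of them had a single DR1 region. *Cebpb*, *Cryba4*, *Prex1*, *Rbfox1*, *Rbms3*, *Sept9* and *Sez6l* had 3 each, and 39 genes had 2. Against this share, 5 of 46 r4 motor neuron and hindbrain genes, 4 of 37 nuclear receptor genes, 1 of 17 retinoic acid targets, 3 of 21 neural progenitor genes and 2 of 15 endothelial genes were nearest to a DR1 region. In axon guidance and adhesion it was 11 of 58 (19.0%). No gene of the blood list (of 7), neural crest list (of 9) or mesenchyme list (of 12) was nearest, nor was any of 26 textbook targets of DR1-binding receptors. The number of shared regions around each gene was not matched, and the lists were chosen with earlier results known, so no test is given.

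Among regulators of hindbrain identity, *Hoxb3*, a Hox gene of the posterior hindbrain, had the only promoter region (chr11:96336093-96347185), at 95.4 and 96.9 CPM in the Fam5snv/snv libraries and 112 and 79.8 CPM in the WT libraries, with its DR1 1077 bp from the TSS. The WT values enclosed those of Fam5snv/snv. *Nkx6-1*, a homeobox gene of motor neuron progenitors, had the highest level of this group, at 166 and 174 CPM in Fam5snv/snv and 256 and 127 CPM in WT, in a region 72281 bp from the gene (chr5:101588854-101592715). *Lhx1*, a LIM homeobox gene, had 119 and 127 CPM in Fam5snv/snv and 163 and 126 CPM in WT (chr11:84652088-84656201), with the DR1 128187 bp from the TSS. The *Tbx3* region, with 2 overlapping soft-masked sites 407781 and 407788 bp from the TSS, was weak, at 6.43 and 4.05 CPM in Fam5snv/snv and 3.50 and 2.11 CPM in WT. In these regions the groups overlapped except at *Tbx3*, where the WT counts were 10 and 6 cut sites. *Ebf1*, which encodes a helix-loop-helix factor of differentiating neurons, had a region at 13.4 and 12.9 CPM in Fam5snv/snv and 8.76 and 15.1 CPM in WT, and another, 412618 bp from the gene, with 38 and 86 cut sites in Fam5snv/snv and 0 and 2 in WT.

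Neural progenitor genes gave 3 regions. *Sox9* was nearest, at 833253 bp, to a region with 50.4 and 56.4 CPM in Fam5snv/snv and 60.3 and 53.1 CPM in WT. *Neurog1*, a proneural gene, was 6123 bp from one with 29.7 and 25.4 CPM in Fam5snv/snv and 11.6 and 24.97 CPM in WT. *Pax7*, a gene of dorsal progenitors, held one in an intron with 21.2 and 37.2 CPM in Fam5snv/snv and 11.6 and 31.7 CPM in WT, whose DR1 lay in a peak of 1 library only. At *Neurog1* the lowest Fam5snv/snv value was just above the highest WT value, and at the other genes the groups overlapped.

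Nuclear receptors and retinoid metabolism came next. *Rxra*, the partner of RAR and PPAR, was nearest to a region with 39.8 and 44.0 CPM in Fam5snv/snv and 50.1 and 38.0 CPM in WT. *Esrrg*, an oestrogen-related orphan receptor, held 2 intronic regions. One had 7.25 and 8.22 CPM in Fam5snv/snv against 9.11 and 15.8 CPM in WT, and the other 12.03 and 11.4 CPM in Fam5snv/snv against 12.3 and 10.9 CPM in WT. Their sites lay 3.5 and 7.5 bp from the middle of the common stretch. *Nr2c2*, the orphan receptor TR4, had 10.3 and 15.2 CPM in Fam5snv/snv and 12.6 and 12.3 CPM in WT. *Cyp26b1*, which degrades retinoic acid, had a region at 14.9 and 17.95 CPM in Fam5snv/snv and 9.46 and 22.9 CPM in WT with a site 42.5 bp from the middle, and another at 25.2 and 15.9 CPM in Fam5snv/snv and 11.2 and 15.5 CPM in WT. The *Cyp26b1* sites lay 45943 and 162052 bp from the TSS, in that order. The groups overlapped at *Rxra*, *Nr2c2*, the other *Esrrg* region and the *Cyp26b1* region given first, whereas the *Esrrg* region given first was lower in both Fam5snv/snv libraries and the other *Cyp26b1* region higher, neither past the threshold.

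Axon guidance genes formed the longest group, with 12 regions. *Ephb2*, an ephrin receptor, had an intronic region at 146 and 117 CPM in Fam5snv/snv and 128 and 116 CPM in WT, and another at 20.2 and 31.7 CPM in Fam5snv/snv and 4.90 and 37.6 CPM in WT. *Slit1*, a repellent ligand of Robo receptors, had 111 and 98.5 CPM in Fam5snv/snv and 161 and 114 CPM in WT. *Cxcr4*, the chemokine receptor for Cxcl12, had 112 and 126 CPM in Fam5snv/snv and 135 and 101 CPM in WT, with the DR1 94431 bp from the TSS. *Sema3f*, a secreted semaphorin, had 63.8 and 69.4 CPM in Fam5snv/snv and 59.2 and 83.0 CPM in WT. Both Fam5snv/snv values were below both WT values at *Slit1* only among these 5 regions.

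The netrin receptor genes *Dcc* and *Unc5a*, the teneurin genes *Tenm3* and *Tenm4* and the cadherin gene *Cdh6* had means between 3.94 and 24.6 CPM. The *Cdh6* site lay 375948 bp from the TSS. *Tenm4* showed how much WT replicate 1 could differ, with 18.7 and 22.1 CPM in Fam5snv/snv and 1.05 and 19.7 CPM in WT, the lowest value being 3 cut sites. Endothelial genes were nearest to weak regions, those of *Flt1*, the VEGF receptor 1, and *Cdh5*, VE-cadherin, with means of 6.59 and 6.11 CPM. Their DR1 sites lay 23157 and 512706 bp from the TSS. Of the 30 regions near listed genes, 20 had a positive log2 fold change, where 51.7% of all tested regions had one, and none passed the adjusted threshold.

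Regions with several DR1 sites had about the same signal as the rest. There were 45 with 2 sites, 14 with 3 and 3 with 4, and their median was 23.5 CPM against 22.5 CPM for the 629 regions with 1 site. In 40 regions the sites overlapped, each sharing a half-site with the next as at *Egln3*, and 38 of these 40 runs were soft-masked. The 3 regions with 4 sites were near *Egln3*, a prolyl hydroxylase of the hypoxia response, at 15.04 and 13.02 CPM in Fam5snv/snv and 12.96 and 18.3 CPM in WT, *Habp2*, at 12.2 and 17.4 CPM in Fam5snv/snv and 10.9 and 14.1 CPM in WT, and *Det1*, at 3.96 and 0.759 CPM in Fam5snv/snv and 4.90 and 8.79 CPM in WT. *Spock1* held 3 sites outside soft-masked sequence, at 45.2 and 34.3 CPM in Fam5snv/snv and 34.0 and 57.3 CPM in WT. Apart from *Det1*, the groups overlapped in these regions. The *Egln3* sites lay 225553 to 225574 bp from the *Egln3* TSS. Another of the repeats compared was present in 38 DR1 regions (5.50%).

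Between genotypes, no DR1 region changed by the test across all regions. Of 689 DR1 regions tested with edgeR's quasi-likelihood test, 0 were higher and 0 lower in Fam5snv/snv at an adjusted p of 0.05, as in all 35770 regions tested (0% called in either direction). At an unadjusted p under 0.05, 29 were higher (4.21%) and 29 lower (4.21%), against 5.29% higher and 3.37% lower over all regions. DESeq2 called 12 higher (1.74%) and 7 lower (1.02%), against 1.02% higher and 0.542% lower of all regions. Both Fam5snv/snv libraries were above both WT libraries in 146 DR1 regions (21.2%) and below them in 133 (19.3%), against 23.2% and 21.4% of all regions. The median log2 fold change was 0.02 for DR1 regions and 0.02 for all regions. The DESeq2 shares of DR1 regions were above those of all regions in both directions, and the other shares were below them except for the unadjusted lower one. None of these differences was tested. An exact permutation test of a single region, with 2 libraries against 2, cannot give a two-sided p below 0.333.

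These counts depended on the WT libraries. Without WT replicate 1, edgeR called 38 DR1 regions higher (5.52%) and 16 lower (2.33%), against 4.17% higher and 1.19% lower of all regions. Without WT replicate 2 it called 97 higher (14.1%) and 49 lower (7.11%), against 11.7% higher and 6.35% lower of all regions. Without either Fam5snv/snv library it called 0. In each such fit the lone sample of a genotype is assumed to vary like the pair of the other. In these sums over barcodes, fewer cells of a type and less signal per cell cannot be told apart. The 268 regions whose DR1 lay outside the peaks of at least 1 library had a median level of 20.1 and 21.4 CPM in Fam5snv/snv and 11.6 and 16.9 CPM in WT, and the 423 others had 24.5 and 26.6 CPM in Fam5snv/snv and 25.9 and 26.7 CPM in WT. Peak calls in the same libraries, fewest in WT replicate 1, made this split, so no difference between genotypes is read from it.

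Promoter DR1 regions had a median log2 fold change of −0.12, with 35 of 107 positive, and the others had 0.07. Over all tested regions 51.7% were positive. The share among all promoter regions is not given here, so the shift is not read as a trait of DR1. Regions with 2 or more sites had 0.01, and those with a site outside soft-masked sequence had −0.01. At an unadjusted edgeR p under 0.05, DR0 regions gave 25 of 133 higher (18.8%) and 0 lower, against 5.29% and 3.37% over all regions. The DR1 regions, at 29 and 29 of 689, did not share this direction. DR2 regions gave 7 higher and 9 lower of 152, DR3 4 and 3 of 90, and DR4 5 and 3 of 117. DR5 regions gave 7 and 3 of 97, inverted repeats 13 and 8 of 153, and everted repeats 7 and 7 of 152. DR0 had the largest share higher among these classes, and no difference between them was tested.

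**Figure D5:**
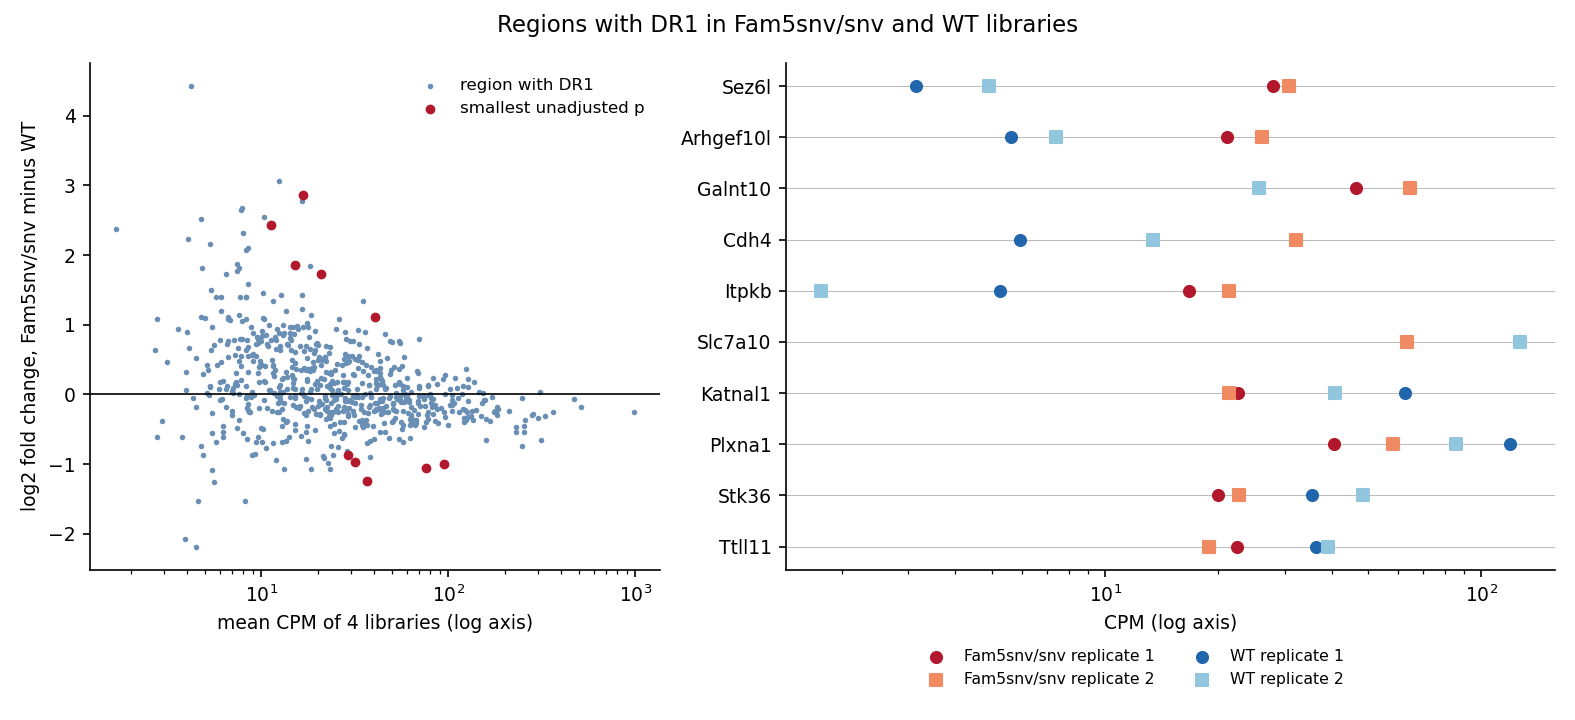
Left, fitted log2 fold change of Fam5snv/snv minus WT (y axis) against mean CPM of 4 libraries (x axis, log) for 689 DR1 regions, with the 5 of smallest unadjusted p in each direction in red; right, CPM (log axis) of those 10 regions in the 2 Fam5snv/snv and the 2 WT libraries, some points hiding another. The values centre on 0, none passes the adjusted threshold, and the highest point, an *Ebf1* region at 4.43, rests on 0 and 2 WT cut sites and so depends on the prior count.

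The 5 DR1 regions of smallest p that were higher in Fam5snv/snv lay outside promoters, and 4 of them had only soft-masked sites. At *Sez6l*, which encodes a neuronal membrane protein (chr5:112501025-112504526), levels were 27.9 and 30.9 CPM in Fam5snv/snv and 3.15 and 4.92 CPM in WT, a log2 fold change of 2.86 (SE 0.40, edgeR unadjusted p = 0.000170, adjusted p = 0.573). Its WT counts were 9 and 14 cut sites, and its DR1 was in peaks of 2 libraries. *Arhgef10l* had 21.1 and 26.2 CPM in Fam5snv/snv and 5.61 and 7.39 CPM in WT. *Galnt10*, which encodes an enzyme of mucin-type glycosylation, had 46.5 and 64.7 CPM in Fam5snv/snv and 25.6 and 25.7 CPM in WT, and was the 1 of the 5 with a site outside soft-masked sequence. The region far from *Cdh4*, the gene of R-cadherin, had 32.1 and 32.2 CPM in Fam5snv/snv and 5.96 and 13.4 CPM in WT. *Itpkb*, an inositol trisphosphate kinase gene with 3 soft-masked sites, had 16.7 and 21.4 CPM in Fam5snv/snv and 5.25 and 1.76 CPM in WT.

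Sites of the 10 regions of smallest p are shown for a pair in each direction, with *Katnal1* above.
Sez6l, chr5:112502628-112502656, minus strand: gcatgcacAGGTCAgAGGTCAacctcggg
Galnt10, chr11:57629795-57629823, minus strand: taagtgacAGGTCAaAGGTCAcgcggctc
Slc7a10, chr7:35168133-35168161, plus strand: gtgtggccAGGTCAcAGGTCAaagatctg
Stk36, chr1:74628177-74628205, minus strand: ggggctggAGGTCAaAGGTCAccccttgc

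The 5 that were lower had their DR1 in peaks of all 4 libraries, and 4 of them had it outside soft-masked sequence. At *Slc7a10*, an amino acid transporter gene (chr7:35162358-35170714), the replicates nearly coincided, at 63.3 and 63.6 CPM in Fam5snv/snv and 126 and 126 CPM in WT, a log2 fold change of −0.99 (SE 0.19, edgeR unadjusted p = 0.00133, adjusted p = 0.573). *Katnal1*, a gene of a katanin-like microtubule-severing protein, had 22.6 and 21.4 CPM in Fam5snv/snv and 62.7 and 40.8 CPM in WT. *Plxna1*, a coreceptor gene for semaphorins, had 40.5 and 58.2 CPM in Fam5snv/snv and 119 and 85.8 CPM in WT. *Stk36*, a kinase gene, had 19.96 and 22.6 CPM in Fam5snv/snv and 35.4 and 48.5 CPM in WT, and *Ttll11*, a tubulin polyglutamylase gene with 2 soft-masked sites, had 22.4 and 18.8 CPM in Fam5snv/snv and 36.4 and 39.0 CPM in WT. The groups did not overlap in any of these 10 regions, which the choice by smallest p makes likely, and the lowest adjusted p among all DR1 regions was 0.573.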

How the data were processed

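For 4 libraries the authors deposited barcodes, peaks and whole-number counts of Tn5 cut sites, by peak and barcode. Cell Ranger-ATAC 2.0.0 is named in the paper's methods, the deposited matrices give software version 1.2.0, and the submitters' processing notes name mm10. No column of per-sample values was left unmapped. Groups follow the genotype label, replicates the title.

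Counts were summed over barcodes, because cells are not replicates, without a cell filter or doublet caller. Peaks overlapping by 1 bp were merged into 263639 regions, and 35809 had a peak in every library. Of these, 35770 reached 10 cut sites in 2 or more libraries and were tested for Fam5snv/snv minus WT with edgeR 4.0.16 in R 4.3.3 (TMM, quasi-likelihood, no block, Benjamini-Hochberg, threshold 0.05), and 2 of the 691 DR1 regions failed this filter. The tested cut sites numbered 7167305 and 7662318 in Fam5snv/snv and 3068305 and 2786516 in WT, with 2 residual degrees of freedom and a common biological coefficient of variation of 0.305, which limit the precision. DESeq2 1.42.0, other scalings, filters, merging rules, mismatches and left-out libraries were alternatives. The scripts were tested on simulated data.

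Exact copies of AGGTCA as direct, inverted (AGGTCA, spacer, TGACCT) and everted (TGACCT, spacer, AGGTCA) repeats, spacers 0 to 10, were scanned on both strands of the RefSeq genome (GRCm38, mm10). Overlapping repeats were each counted. A site with any soft-masked base was called soft-masked. Regions were annotated with GENCODE M21 and named by the nearest protein-coding TSS, which need not be the regulated gene. Intervals are exact Clopper-Pearson at 95%.

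Regions were named by rule: the 10 of highest mean CPM, the 5 of smallest p in each direction, those with 2 or more sites, the 10 promoter regions of highest CPM, those near a gene of 10 lists (283 genes), the 10 most central sites, and the top region of each other direct repeat. Only some of their sequences are printed, none from chromosome 18, and regions with 2 or 3 sites are mostly summarised. Members, lists and rule were chosen with earlier results of these data known.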

Additional observations from a re-analysis of the deposited data

How the results depend on the processing

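Leaving out each library in turn moved the number of DR1 regions called from 0 to between 0 and 146, and that of all regions called to between 0 and 6438 (1916 without WT replicate 1, 6438 without WT replicate 2). DESeq2 called 19 DR1 regions and 560 regions in all, and edgeR called 18 in all when each library's peaks had to cover 50% of a region. With the replicate number as a block, 0 were called and the median log2 fold change of DR1 regions was 0.06. The deviations of same-numbered libraries correlated at 0.029. This gave no sign of pairing, but with 2 libraries per genotype it cannot exclude it. The median was 0.97 when libraries were scaled by barcodes (0.97 over all regions as well) and −0.071 for regions with a site in peaks of every library, a choice made from peak calls in the same libraries.

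The 691 regions became 1499 with peaks required in 2 libraries, 423 with a site in peaks of every library, 273 outside soft-masked sequence, 3601 with 1 mismatch allowed, and 691 to 1168 without 1 library (1168 without WT replicate 1). The ratio of 5.29 became 4.67 outside soft-masked sequence, 9.63 in stretches common to all libraries, 6.41 with 2 libraries, 2.90 with 1 mismatch, and 5.29 to 6.12 without 1 library. The median signal of 22.9 CPM became 8.15 CPM per kb of region, 18.8 CPM without TMM over all cut sites, and 27.0 CPM for regions with a site in peaks of every library. The promoter share of 15.5% became 23.2% at 5 kb, 4.66% for the site itself, and 10.4% to 15.5% without 1 library.

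The share of mm10 DR1 sites in peaks was 27.9% and 38.5% in Fam5snv/snv and 11.4% and 25.8% in WT. Outside soft-masked sequence it was 32.5% and 42.2% in Fam5snv/snv and 14.6% and 29.5% in WT, and with 1 mismatch 14.1% and 19.5% in Fam5snv/snv and 5.39% and 12.8% in WT. The causes were not tested. Of 66 values of 11 named regions under 6 alternatives, 66 kept their direction. Most of these regions were chosen by smallest p, and the groups overlapped in none of them. The choice thus nearly fixed the direction in advance, and nothing is read from its being kept. At these depths 1 cut site was 0.126 to 0.352 CPM, so regions of a few CPM rest on few cut sites. Whether the lower depth of the WT libraries bears on the number called was not tested.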
